A study of Mus musculus with 6 samples.

Results

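Clustered histone genes encode the bulk of the histones that a cell makes while it copies its DNA. The core histones H2A, H2B, H3 and H4 form the nucleosome around which DNA is wound, and the linker histone H1 binds the DNA between nucleosomes. These genes lie together in clusters and mostly have no intron. Their mRNAs mostly end in a stem-loop, which the stem-loop binding protein SLBP recognizes, and mostly lack a poly(A) tail. Cells that have stopped dividing, such as the neurons of the retina, take their histones largely from replacement genes outside the clusters, whose mRNAs carry a poly(A) tail, and some clustered genes are known to give polyadenylated transcripts in differentiated cells. Members were the genes of the deposited count table whose symbols begin with *Hist1h*, *Hist2h*, *Hist3h* or *Hist4h* and which had at least 10 counts summed over the 6 libraries. Of 31169 genes in the table, 60 carried such a symbol and 37 were members. The 23 others had at most 8 counts, the highest being *Hist1h4a* with 8 and *Hist1h2ab* with 7, whereas *Hist1h2bf* and *Hist1h3f* entered with 10 and *Hist1h2bp* and *Hist1h3c* with 11.

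The microbead occlusion model raises intraocular pressure (IOP) by blocking the outflow of fluid from the anterior chamber with beads, and saline injection serves as its control. C57BL/6 mice received an intracameral injection of saline (n = 3 libraries) or of microbeads 15 μm in diameter (n = 3 libraries) when 1 month old, and their retinas were taken 4 weeks later, at 2 months, for sequencing of poly(A)-enriched RNA. The labels do not say whether a library came from 1 retina or from several, so the p-values below measure the spread between these libraries. The saline libraries held 36085737, 46481382 and 37546884 counts and the microbead libraries 19834366, 13574949 and 15647739 counts. Levels are given in CPM (counts per 1000000 counts, with library sizes scaled by TMM), and 3 counts correspond to between 0.0622 CPM in the deepest library and 0.217 CPM in the shallowest. The saline libraries share a naming series that the microbead libraries do not, and an effect of that series cannot be told apart from an effect of the injection.

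The tissue carried the markers of its label. *Gnat1*, the rod transducin subunit, was at 13584, 13136 and 16965 CPM after saline and at 19013, 15903 and 21423 CPM after microbeads. Some libraries stood apart in markers of other cells. Saline replicate 1 had the lowest sum of 10 retinal ganglion cell markers (436.2 CPM, against 993.4 to 1450 CPM in the other libraries) and the highest level of the microglia marker *C1qa* (49.4 CPM, against 10.2 to 32.4 CPM). The sum of 10 blood leukocyte markers was 40.1, 35.3 and 38.6 CPM in saline replicate 1 and microbead replicates 1 and 2, and 9.27, 9.04 and 3.38 CPM in saline replicates 2 and 3 and microbead replicate 3. Saline replicate 3 held 244.2 CPM of 5 lens markers, of which *Cryaa*, a lens crystallin, made up 210.5 CPM, and 176.5 CPM of 8 pigment epithelium markers. *Cryaa* was at 15.5 and 0.27 CPM in saline replicates 1 and 2 and at 0, 0.144 and 0 CPM in the microbead libraries. The part of these cells in the histone values was not tested beyond leaving out each library in turn.

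Between the groups, the clustered histone genes did not move together. Of the 37 members, 18 passed edgeR's filter on low counts and were tested with its quasi-likelihood test, and 0 of the 18 had an adjusted p-value under 0.05, against 12.8% of all 17707 genes tested. At an unadjusted p-value under 0.05 there were 6 of 18, 3 higher and 3 lower after microbeads, against 31.4% of all genes. DESeq2 called 2 of the 18, against 20.2% of all genes, and limma-voom called 0 of 18, against 12.5%. At an unadjusted p-value under 0.05 there were 7 with DESeq2 (32.1% of all genes) and 9 with limma-voom (31.6%). The groups did not overlap in CPM for 9 of the 18, 4 higher and 5 lower, against 37.8% of all genes. Log2 fold changes (microbead over saline) were above 0 for 9 and below 0 for 9, with a median of 0.08 against -0.03 for all genes tested. Their median standard error was 0.46, against 0.26 for all genes, so that single members were measured less precisely than the typical gene. The summed level of all 37 members was 308.2, 280.7 and 351.3 CPM after saline and 379.8, 224.6 and 270.6 CPM after microbeads. The microbead libraries spanned the whole saline range, and the log2 ratio of the means was -0.10 with a within-group spread of 0.29. In bulk tissue, fewer cells of a type and less RNA per cell cannot be told apart.

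A few genes held nearly all of the reads. The 37 members summed to 52107 counts, which was 0.0229% to 0.0372% of a library, and the 6 most abundant members held 92.2% of them. *Hist1h2bc* and *Hist1h1c* alone held 56.8%. Per length of annotated exon, mean levels over the 6 libraries were 76.6 CPM per kilobase for *Hist1h2bc*, 50.7 for *Hist1h1c*, 45.9 for *Hist3h2ba*, 22.5 for *Hist3h2a*, 8.70 for *Hist1h4i* and 7.90 for *Hist2h2be*. Lengths were taken from a later annotation than the one the counts were made with, and 16 of the 36 members found in it, *Hist1h2bc* among them, have a changed gene version there. The clusters lie on chromosome 13 (*Hist1*, 29 members), chromosome 3 (*Hist2*, 4 members), chromosome 11 (*Hist3*, 3 members) and chromosome 6 (*Hist4*, 1 member), and the 37 members comprise 5 genes of H1, 5 of H2A, 12 of H2B, 7 of H3 and 8 of H4.

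**Figure D1:**
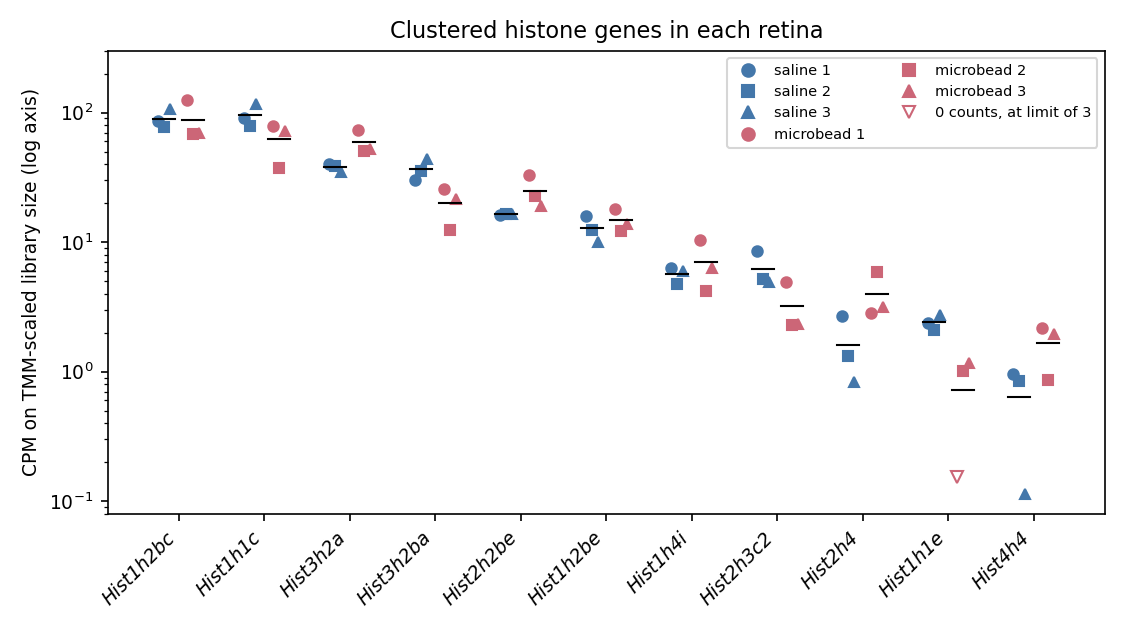
Level of the 11 named clustered histone genes in each library, in CPM on a log axis, with saline libraries in blue, microbead libraries in red and a black line at each group mean (n = 3 libraries). The open triangle marks a library with 0 counts, drawn at its limit of 0.154 CPM; *Hist1h2bc* overlaps between groups, whereas *Hist3h2a* and *Hist3h2ba* do not.

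H1 binds the linker DNA and compacts chromatin, and *Hist1h1c* (ENSMUSG00000036181.2; chr13:23738808-23740367, GRCm38, plus strand) was its most abundant gene. *Hist1h1c* was measured at 90.6, 78.9 and 117.0 CPM after saline (mean 95.5 ± 19.5, SD, n = 3) and at 78.3, 37.2 and 72.3 CPM after microbeads (62.6 ± 22.2, SD, n = 3). The groups did not overlap, by a margin of less than 1 CPM between microbead replicate 1 and saline replicate 2. Its difference in log2 was -0.61 ± 0.28 (SE; edgeR adjusted p = 0.169). *Hist1h1e* was at 2.36, 2.12 and 2.74 CPM after saline and at 0, 1.01 and 1.17 CPM after microbeads, where the 0 in microbead replicate 1 allows up to 0.154 CPM. Again the groups did not overlap (log2 difference -1.76 ± 0.85, SE, edgeR adjusted p = 0.189). Both H1 genes passed the threshold when no filter on low counts was used (adjusted p = 0.0380 for *Hist1h1c* and 0.0378 for *Hist1h1e* from edgeR) and in no other fit. With a library left out, the log2 fold change ran from -0.81 to -0.33 for *Hist1h1c* (adjusted p 0.146 to 0.381) and from -2.33 to -1.14 for *Hist1h1e* (0.123 to 0.286). For *Hist1h1e*, limma-voom gave a larger log2 fold change of -3.10 (limma-voom adjusted p = 0.0849). The annotated exon of *Hist1h1e* shares 496 bases on the same strand with *Hist1h2be*, so reads of these genes are uncertain there. The other 3 H1 members, *Hist1h1a*, *Hist1h1b* and *Hist1h1d*, had between 18 and 40 counts in all.

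H2A and H2B pair into dimers on either side of the nucleosome. *Hist3h2a* (ENSMUSG00000078851.4; chr11:58954685-58956830, plus strand), the most abundant H2A gene, was at 39.9, 38.8 and 35.0 CPM after saline (37.9 ± 2.60, SD, n = 3) and at 73.8, 50.3 and 52.4 CPM after microbeads (58.8 ± 13, SD, n = 3). The microbead libraries lay above the saline libraries, with microbead replicate 1 highest. The difference in log2 was 0.64 ± 0.19 (SE; edgeR adjusted p = 0.0598). DESeq2 gave an adjusted p of 0.0203, and upper-quartile scaling gave 0.0494 with edgeR. All other fits were over 0.05, with 0.0614 from limma-voom and 0.0721 to 0.17 with a library left out, and the log2 fold change was 0.435 without microbead replicate 1 and 0.473 with an offset for GC content and exon length. *Hist3h2a* shares 708 exonic bases on the same strand with *Trim17*, a ubiquitin ligase gene that rose from 15.7, 18.2 and 12.1 CPM to 26.3, 22.5 and 35.7 CPM (log2 difference 0.88 ± 0.24, SE, edgeR adjusted p = 0.0424), and the division of reads between them is uncertain. *Hist1h2ac*, the second H2A gene by count, was at 1.75, 1.56 and 1.60 CPM after saline and at 0.823, 0.867 and 0.715 CPM after microbeads. Its replicates agreed closely and the groups did not overlap, but with 236 counts in all its standard error was 0.42 (log2 fold change -1.03, edgeR adjusted p = 0.128).

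*Hist1h2bc* (ENSMUSG00000018102.4; chr13:23684199-23692908, plus strand) had the highest count of the members. It was at 85.9, 77.4 and 106.1 CPM after saline (89.8 ± 14.8, SD, n = 3) and at 124.5, 68.2 and 69.2 CPM after microbeads (87.3 ± 32.2, SD, n = 3). Microbead replicate 1 was the highest of all 6 libraries and the other microbead libraries were the lowest, so the groups overlapped (log2 difference -0.04 ± 0.26, SE, 95% interval -0.54 to 0.46, edgeR adjusted p = 0.935). *Hist3h2ba* (ENSMUSG00000056895.4; chr11:58948920-58949533, plus strand) was at 30.4, 35.6 and 43.6 CPM after saline (36.5 ± 6.67, SD, n = 3) and at 25.8, 12.5 and 21.4 CPM after microbeads (19.9 ± 6.77, SD, n = 3). The microbead libraries lay below the saline libraries. The difference in log2 was -0.87 ± 0.27 (SE; edgeR adjusted p = 0.0622), and the adjusted p was 0.0428 without saline replicate 1, 0.0243 with DESeq2 and 0.00388 without the filter. It was over 0.05 in all other fits, among them limma-voom (0.0615) and the 5 others with a library left out (0.0658 to 0.160). *Hist2h2be* was at 16.1, 16.6 and 16.6 CPM after saline and at 32.9, 22.9 and 19.1 CPM after microbeads. The saline libraries differed by less than 1 CPM and lay below the microbead libraries (log2 difference 0.61 ± 0.23, SE, edgeR adjusted p = 0.103; 0.35 in log2 without microbead replicate 1). *Hist1h2be* was at 16, 12.4 and 10.1 CPM and at 18.0, 12.3 and 13.9 CPM, with overlapping groups (0.20, SE 0.25, edgeR adjusted p = 0.621).

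*Hist3h2a* and *Hist3h2ba* are neighbours on chromosome 11 that differed in opposite directions. Within each library the count of *Hist3h2a* divided by that of *Hist3h2ba* does not depend on library scaling. This ratio was 1.31, 1.09 and 0.801 after saline and 2.86, 4.02 and 2.45 after microbeads. The groups did not overlap in the ratio, which was chosen after the values of both genes were seen and is given without a test.

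H3 and H4 form the tetramer at the centre of the nucleosome. *Hist2h3c2*, the most abundant H3 gene, was at 8.55, 5.19 and 4.94 CPM after saline and at 4.94, 2.31 and 2.34 CPM after microbeads. Saline replicate 1 was highest, and microbead replicate 1 was level with saline replicate 3 (log2 difference -0.95 ± 0.40, SE, edgeR adjusted p = 0.136). Of the 100-base stretches of *Hist2h3c2*, 61.6% occur in transcripts of another locus, chiefly *Hist2h3c1*, so its reads are uncertain. *Hist1h3d* had 79 counts in all, with a log2 fold change of 1.15 (SE 0.55, edgeR adjusted p = 0.188).

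*Hist1h4i*, the most abundant H4 gene, was at 6.32, 4.71 and 5.93 CPM after saline and at 10.5, 4.19 and 6.37 CPM after microbeads, with microbead replicate 2 the lowest of the 6 (log2 difference 0.31 ± 0.35, SE, edgeR adjusted p = 0.580). *Hist2h4* was at 2.68, 1.33 and 0.827 CPM after saline and at 2.83, 5.92 and 3.18 CPM after microbeads. The groups did not overlap, though saline replicate 1 lay within 1 CPM of microbead replicates 1 and 3 (log2 difference 1.30 ± 0.51, SE, edgeR adjusted p = 0.116). Without saline replicate 1, the library that stood apart in ganglion cell and microglia markers, the log2 fold change of *Hist2h4* was 1.86 and its adjusted p 0.0341 from edgeR. Over the 6 fits with a library left out, it ran from 0.92 to 1.86, and the other 5 gave no call (adjusted p up to 0.308). *Hist4h4*, the sole member of its cluster, was at 0.956, 0.850 and 0.114 CPM and at 2.16, 0.867 and 1.95 CPM (log2 difference 1.37 ± 0.71, SE, edgeR adjusted p = 0.223). The other 3 H4 genes tested, *Hist1h4h*, *Hist1h4j* and *Hist1h4k*, had log2 fold changes between -0.78 and 0.59 and adjusted p-values between 0.323 and 0.624 from edgeR.

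**Figure D2:**
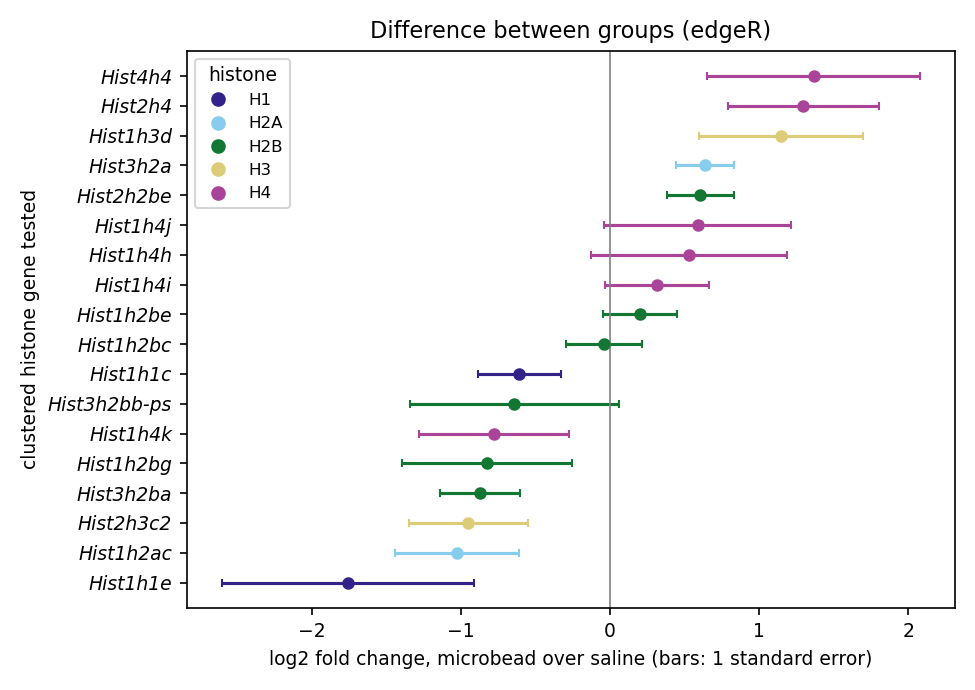
Log2 fold change of each of the 18 clustered histone genes tested, microbead over saline, with bars of 1 standard error and colours for the histone type. Values run from -1.76 for *Hist1h1e* to 1.37 for *Hist4h4*, and 9 lie on each side of 0.

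By type, the members' counts divided as follows, and H1 and H2A each rest mostly on a single gene that was not past the threshold. H1 genes took 30.3%, 29.1% and 34.3% of the members' counts after saline and 20.7%, 17.3% and 27.4% after microbeads. H2A genes took 13.6%, 14.5% and 10.5% after saline and 19.7%, 23.2% and 19.9% after microbeads. Neither of these shares overlapped between groups. H2B genes took 49.0%, 51.4% and 51.0% and then 53.3%, 52.4% and 46.5%, with overlap. H3 genes took 3.12%, 2.04% and 1.54% and then 1.67%, 1.58% and 1.30%, also with overlap. H4 genes took 3.92%, 3.03% and 2.68% after saline and 4.70%, 5.59% and 4.97% after microbeads, without overlap. The shares of a library make up a whole, so a lower share of H1 leaves more to the others, and they are not separate results. The H2A share rests mostly on *Hist3h2a*, whose reads are uncertain where its exon overlaps *Trim17*. These shares are descriptions of the members and were given no test.

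Replicates of a group did not rank the members evenly. Microbead replicate 1 had the highest microbead level for 12 of the 18 tested members, replicate 2 for 4 and replicate 3 for 2. Among the saline libraries, replicate 1 was highest for 10 and replicate 3 for 8. These ranks are given for the members alone, and whether other genes rank the libraries alike is not given here. The remaining 19 members were not tested. They had between 10 and 49 counts each and 409 together, 0.785% of the members' counts, and summed to 2.63, 2.22 and 2.40 CPM after saline and 1.90, 2.60 and 2.99 CPM after microbeads. At this depth most of their differences were not detectable: in 10 of the 19 no microbead library had over 3 counts. *Hist1h2bf*, at 0 counts in the 3 microbead libraries, was at 0.0797, 0.0830 and 0.0856 CPM after saline, where it too was near the limit of detection.

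Members differed in their annotated 3′ ends, which are given for 1 transcript per gene, the longest with a stem-loop or, without any, the longest. A stem-loop of 6 perfectly paired bases beginning with GG and closed by a loop of 4 bases beginning with TTT was found in annotated transcripts of 29 of the 36 members in GENCODE vM21, and in 28 of 21884 protein-coding genes outside the clusters (0.128%). In 10 members the transcript ends 23 to 74 bases after the loop. These had a median of 16.5 counts and at most 87, and held 0.445% of the members' counts, and 1 of the 10 (*Hist1h4h*) was tested. In 19 members the annotated transcript runs on for 151 to 4884 bases past the loop. These had a median of 165 counts, held 63.6% of the counts, and 13 of the 19 were tested. Per length of exon the medians of these groups were closer, at 0.21 CPM per kilobase for the 10 and 0.491 for the 19. In 7 members no such loop lies in the annotated transcripts, among them *Hist1h2bc*, whose transcript has 2 exons, and *Hist2h2be*, and these 7 held 35.9%. The poly(A) signal AATAAA lies in the last 40 bases of 8 members, which held 60% of the counts. Further transcripts of *Hist1h2be* and *Hist1h2bp*, not used here, carry it too. The libraries were made from poly(A) RNA, and the annotation itself rests in part on polyadenylated transcripts, so levels of the gene and of its poly(A) form cannot be told apart.

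The stem-loops of 8 members are shown, 7 of them from transcripts that run on well past the loop. Capitals mark the stem and loop, with 5 bases on either side, on the strand of the transcript (GENCODE vM21, GRCm38).
Hist1h1c: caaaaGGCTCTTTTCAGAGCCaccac
Hist3h2a: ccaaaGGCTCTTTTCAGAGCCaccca
Hist3h2ba: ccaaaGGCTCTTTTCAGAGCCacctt
Hist1h2be: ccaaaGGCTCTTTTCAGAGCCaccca
Hist1h4i: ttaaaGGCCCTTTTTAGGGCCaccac
Hist2h3c2: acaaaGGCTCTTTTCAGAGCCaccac
Hist2h4: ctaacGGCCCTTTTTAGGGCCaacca
Hist1h2bj: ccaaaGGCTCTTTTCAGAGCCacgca
In the first 7 of these, the transcript goes on for 840 bases (*Hist1h1c*), 1643 bases (*Hist3h2a*), 169 bases (*Hist3h2ba*), 1861 bases (*Hist1h2be*), 330 bases (*Hist1h4i*), 377 bases (*Hist2h3c2*) and 1257 bases (*Hist2h4*). The *Hist1h2bj* transcript ends 23 bases after the loop, and this gene had 27 counts in all. The stem-loop of *Hist1h2bj* has the same capitals as those of *Hist1h1c*, *Hist3h2a* and *Hist3h2ba*. The window of *Hist1h1c* begins at position 23739507 of chromosome 13 and that of *Hist3h2a* at position 58955167 of chromosome 11.

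**Figure D3:**
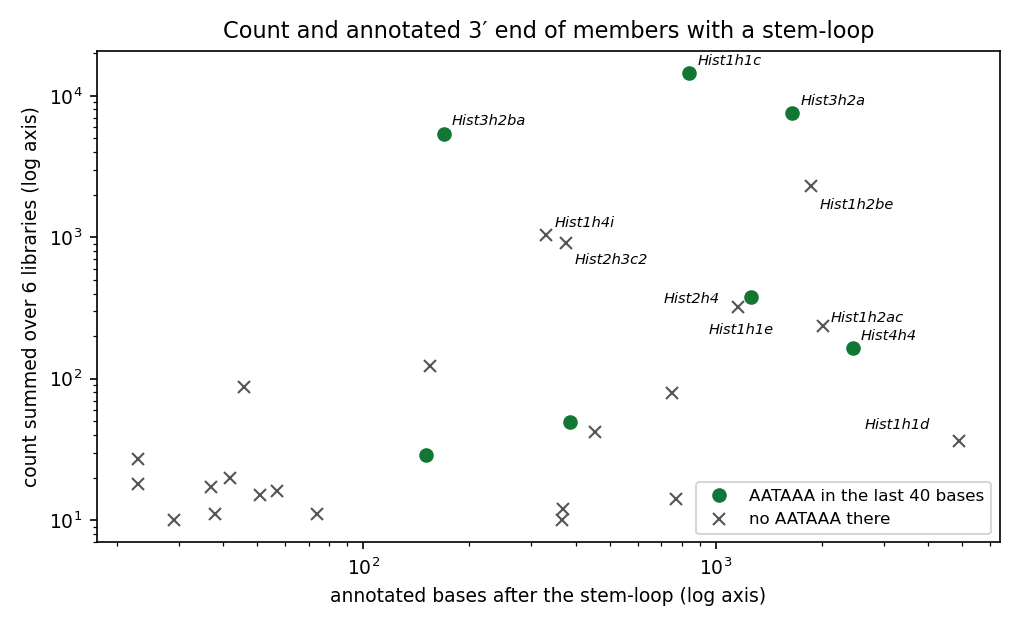
Count of each member with a stem-loop, summed over the 6 libraries, against the annotated bases after the loop, both on log axes. Green circles mark transcripts with AATAAA in their last 40 bases; the 10 members that end within 74 bases of the loop had at most 87 counts.

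Many H2A and H2B genes lie head to head, with their promoters in the short stretch between them, and 5 such pairs had both genes among the members. In 4 of the 5 pairs, the genes differed more than 4-fold in count. *Hist1h2bc* had 15114 counts and *Hist1h2ac*, whose annotated start lies across 250 bases, had 236, a ratio of 64.0 in count and 138 per length. *Hist2h2be* had 3239 counts against 16 for *Hist2h2ac*, a ratio of 202 in count and 40.2 per length. *Hist3h2a* had 7535 counts against 132 for the pseudogene *Hist3h2bb-ps*, a ratio of 57.1 in count and 12.4 per length. Between libraries the ratio in count varied widely. It ran from 49.0 to 151 for *Hist1h2bc*, from 63.4 to 799 for *Hist2h2be* and from 39.5 to 717 for *Hist3h2a*. The ratio of 799 rests on 1 count of *Hist2h2ac* in saline replicate 2. That of 717 rests on 2 counts of *Hist3h2bb-ps* in microbead replicate 1, so counting error alone makes these extremes uncertain. *Hist2h2ac* had 0 counts in microbead replicate 1, so its pair has no ratio there. *Hist1h2bg* had 122 counts against 29 for *Hist1h2ae*, and *Hist1h2ad* had 20 against 10 for *Hist1h2bf*.

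The windows around the starts of 3 of these pairs are printed because each holds the start of an abundant and of a scarce gene. RefSeq windows of 300 bases (GRCm38.p6) were found for 31 of the 37 members. They were searched on both strands for the TATA box TATAAA, the CCAAT box CCAAT and the octamer ATTTGCAT, a site bound by the POU factor encoded by *Pou2f1*. Capitals mark matches, and each sequence reads along the strand of the gene named.
Hist1h2ac, chr13:23683910-23684209, minus strand: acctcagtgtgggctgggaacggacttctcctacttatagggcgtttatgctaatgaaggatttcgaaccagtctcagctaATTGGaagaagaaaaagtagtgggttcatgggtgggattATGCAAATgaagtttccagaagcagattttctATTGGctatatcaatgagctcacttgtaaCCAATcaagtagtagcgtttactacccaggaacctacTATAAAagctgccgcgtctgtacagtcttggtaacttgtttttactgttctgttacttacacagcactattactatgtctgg
Hist2h2ac, chr3:96220831-96221130, minus strand: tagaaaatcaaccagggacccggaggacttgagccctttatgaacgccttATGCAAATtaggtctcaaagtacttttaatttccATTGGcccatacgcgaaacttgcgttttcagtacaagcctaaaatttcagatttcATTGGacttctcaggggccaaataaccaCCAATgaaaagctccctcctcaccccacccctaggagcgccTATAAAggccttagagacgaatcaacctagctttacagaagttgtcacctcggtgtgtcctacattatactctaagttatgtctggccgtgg
Hist3h2a, chr11:58954435-58954734, plus strand: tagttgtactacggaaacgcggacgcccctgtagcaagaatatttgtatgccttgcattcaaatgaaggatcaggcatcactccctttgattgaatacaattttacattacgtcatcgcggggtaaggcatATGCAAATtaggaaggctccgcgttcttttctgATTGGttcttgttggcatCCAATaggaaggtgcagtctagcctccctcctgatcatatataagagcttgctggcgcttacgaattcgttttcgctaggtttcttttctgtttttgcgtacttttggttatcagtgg
Each of the 3 windows holds 1 octamer. The windows of *Hist1h2ac* and *Hist2h2ac* hold 1 TATA box and 3 CCAAT boxes each, and that of *Hist3h2a* holds 2 CCAAT boxes and no TATAAA. Over the 31 members, 20 windows (64.5%) hold TATAAA, 26 (83.9%) hold CCAAT and 7 (22.6%) hold the octamer, against 13.6%, 37.4% and 1.74% of 32851 windows of all genes. These are matches of letters and not measured binding.

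**Figure D4:**
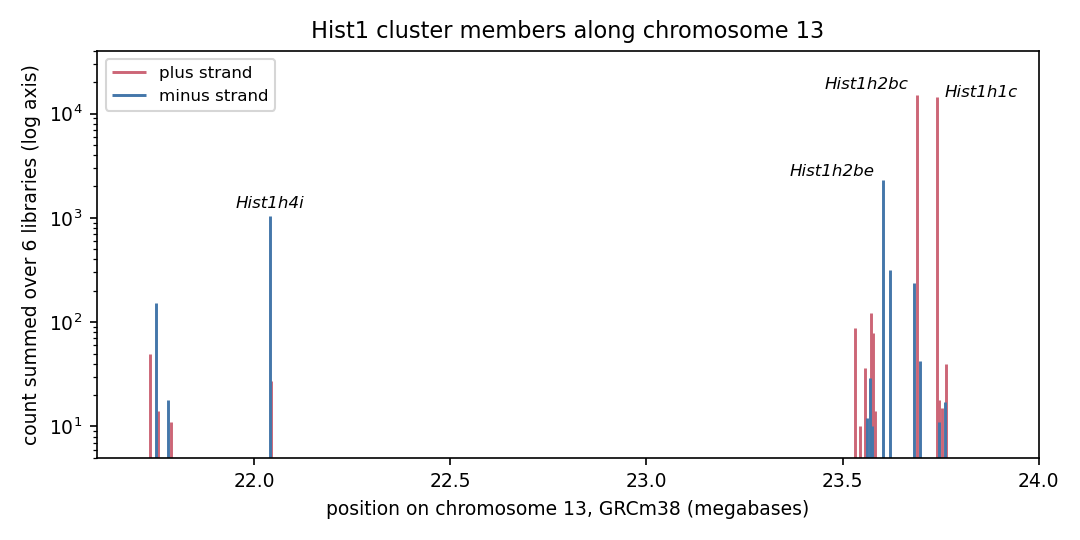
Members of the *Hist1* cluster by their position on chromosome 13 (GRCm38, in megabases), with the count summed over 6 libraries on a log axis and the strand in colour. *Hist1h2bc* (15114 counts) and *Hist1h1c* (14468 counts) stand among neighbours with far fewer.

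Stretches shared with other genes, as copies or where exons overlap, make some counts uncertain. The median member shared 25.1% of its 100-base stretches with transcripts of another locus, and 5 of 36 members shared over 50%, the highest being *Hist1h4k* with 64.3%. The treatment of reads with several mapping places is not given in the sources used here. Among the abundant members, the shares were 29.8% for *Hist3h2a*, chiefly with the overlapping *Trim17*, 25.4% for *Hist1h2bc*, 5.07% for *Hist1h1c*, 4.85% for *Hist3h2ba* and 0% for *Hist2h2be*.

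In these poly(A)-enriched libraries, which leave tail-less histone mRNA largely unmeasured, replacement histone genes were more abundant in sum. They encode variants that are loaded outside DNA replication, and 13 of 17 listed genes were in the table and 12 were tested. Their summed level was 1452, 1377 and 1863 CPM after saline and 2237, 1336 and 1632 CPM after microbeads. Of the 12, 1 was higher past the threshold (6.46% of all genes were) and 0 lower (6.31% of all genes), with 3 at an unadjusted p-value under 0.05 (31.4% of all genes) and a median log2 fold change of -0.03. Groups did not overlap for 3 of the 12, *H3f3a*, *H2afz* and *H1foo*, against 37.8% of all genes. *H3f3b*, the most abundant, encodes H3.3 and was at 808.8, 766.2 and 1119 CPM after saline and at 1573, 843.3 and 1073 CPM after microbeads (log2 difference 0.37 ± 0.26, SE, edgeR adjusted p = 0.353). Its mean level per length was 346.3 CPM per kilobase, against 46.3 for *H3f3a*, which also encodes H3.3, and 4.62 for *Hist2h3c2*. *H3f3a* had a log2 fold change of -0.42 (SE 0.18, edgeR adjusted p = 0.145).

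Among the H2A variants, *H2afz*, encoding H2A.Z, was at 61.8, 62.7 and 72.4 CPM after saline and at 59.6, 32.6 and 34.6 CPM after microbeads. Microbead replicate 1 lay close to the saline libraries and the others well below (log2 difference -0.63 ± 0.24, SE, edgeR adjusted p = 0.109). With a library left out, the adjusted p ran from 0.0380 (without microbead replicate 1, the 1 of 6 such fits that called it) to 0.298. *H2afv* (0.03), *H2afy* (-0.19), *H2afy2* (0.22), *H2afx* (-0.12) and *H2afj* (0.14) had adjusted p-values between 0.464 and 0.934 from edgeR. Per length, *H2afv* was at 44.2, *H2afz* at 30.4 and *H2afx* at 25.2 CPM per kilobase, in the range of *Hist3h2a* at 22.5. *H2afx* is known for a transcript with both a stem-loop and a poly(A) form, and the stem-loop search found it among the genes outside the clusters. The linker histone *H1f0* was at 38.5 CPM per kilobase, against 50.7 for *Hist1h1c*, with a log2 fold change of -0.09 (SE 0.21, edgeR adjusted p = 0.80). *H1fx* had -0.40 (edgeR adjusted p = 0.422) and *Cenpa*, the histone of the centromere, 0.30 (edgeR adjusted p = 0.635). *H3f3c* had 32 counts and was not tested.

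The replacement gene past the threshold was *H1foo*, known as the linker histone of the oocyte. *H1foo* was at 0.319, 0.270 and 0.371 CPM after saline and at 1.75, 0.794 and 1.69 CPM after microbeads, without overlap, from 109 counts in all (log2 difference 2.14 ± 0.53, SE, edgeR adjusted p = 0.0326). With any of the 6 libraries left out in turn, its adjusted p was between 0.0506 and 0.138 from edgeR.

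The factors that make and destroy histone mRNA gave some calls in both directions. Of 6 transcription factors of histone genes, 1 was higher and 0 lower past the threshold (6.46% and 6.31% of all genes), with 1 at an unadjusted p-value under 0.05 (31.4% of all genes) and 1 called by DESeq2. *E2f4*, a member of the E2F family that mostly represses cell cycle genes, rose from 43.5, 34.3 and 27.9 CPM to 94.1, 85.8 and 102.4 CPM (log2 difference 1.42 ± 0.20, SE, edgeR adjusted p = 0.00938; 0.0611 without microbead replicate 3). *Npat*, the coactivator at histone locus bodies, was at 24.5, 27.6 and 21.9 CPM and at 28.9, 37.6 and 31.4 CPM (0.40, edgeR adjusted p = 0.169), and *Pou2f1* had a log2 fold change of -0.43 (edgeR adjusted p = 0.312).

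Of 15 tested genes for the 3′ end of histone mRNA, 3 were higher and 1 lower past the threshold, against 6.46% and 6.31% of all genes. *Slbp*, which encodes the stem-loop binding protein, was at 21.1, 19.0 and 18.2 CPM after saline and at 25.2, 18.1 and 14.4 CPM after microbeads. The microbead libraries lay on both sides of the saline libraries (log2 difference -0.01 ± 0.23, SE, edgeR adjusted p = 0.980). The called genes act in polyadenylation or splicing as well. *Cstf2*, the cleavage stimulation factor, rose by a log2 fold change of 0.67 (SE 0.18, edgeR adjusted p = 0.0424). *Srrt*, the cap-binding partner ARS2 and the most abundant of the list, rose by 0.60 (SE 0.17, edgeR adjusted p = 0.0443). Among the Sm proteins, *Snrpd3* rose by 0.79 (SE 0.23, edgeR adjusted p = 0.050, just under the threshold) and *Snrpb* had a log2 fold change of -0.69 (SE 0.18, edgeR adjusted p = 0.0368). *Lsm11*, specific to the U7 particle that cuts histone mRNA, was at -0.57 (edgeR adjusted p = 0.0749) and *Lsm10* at 0.18 (edgeR adjusted p = 0.708).

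Of 10 genes for translation and decay of histone mRNA, 3 were higher and 1 lower past the threshold, against 6.46% and 6.31% of all genes. *Mif4gd*, an SLBP partner in translation, rose by a log2 fold change of 0.95 (SE 0.23, edgeR adjusted p = 0.0298). The terminal uridylyltransferase gene *Zcchc11* rose by 0.78 (SE 0.19, edgeR adjusted p = 0.0294) and *Pnpt1*, a mitochondrial polynucleotide phosphorylase, by 1.19 (SE 0.28, edgeR adjusted p = 0.0285). The decapping enzyme gene *Dcp2* had a log2 fold change of -0.99 (SE 0.19, edgeR adjusted p = 0.0160). *Upf1*, the most abundant of the list and a helicase needed for histone mRNA decay, was at -0.58 (edgeR adjusted p = 0.0837). Of 21 histone chaperones, 1 was higher (*Nasp*, 0.74, SE 0.20, edgeR adjusted p = 0.0392) and 1 lower (*Asf1a*, -0.85, SE 0.21, edgeR adjusted p = 0.0343), with 7 at an unadjusted p-value under 0.05, against 31.4% of all genes, of which 12.8% were past the threshold in either direction. *Nasp* binds H3, H4 and linker histones and *Asf1a* hands H3 and H4 to the assembly factors. *Asf1a* shares 1748 exonic bases with *Mcm9* on the other strand, and whether the counting used the strand is not given in the sources used here. *Anp32e*, the most abundant chaperone, was at -0.36 (edgeR adjusted p = 0.187).

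Levels of the genes for DNA replication and the cell cycle were mixed. Of the 36 listed, 12 had a mean under 1 CPM, whereas *Pcna* had a mean of 67.3 CPM and *Bub1b* of 30.9 CPM. *Mki67*, a marker of proliferation, was at 1.46, 0.0415 and 0.0571 CPM after saline and at 0, 0.289 and 0 CPM after microbeads, and *Top2a* at 1.62, 0.270 and 0.143 CPM and at 0, 0.0722 and 0 CPM. Saline replicate 1 was the highest for both. The other libraries had at most 0.289 CPM of either gene. Of 31 tested genes for DNA replication and the cell cycle, 1 was higher and 0 lower past the threshold (6.46% and 6.31% of all genes), with 3 at an unadjusted p-value under 0.05 (31.4% of all genes). That gene was the cyclin gene *Ccna2*, at 29.3, 18.5 and 6.45 CPM after saline and at 52.3, 47.1 and 58.8 CPM after microbeads (log2 difference 1.54 ± 0.43, SE, edgeR adjusted p = 0.0455). *Ccna2* shares 510 exonic bases with *Exosc9* on the other strand. *Pcna*, the sliding clamp and the most abundant of the list, was at -0.11 (edgeR adjusted p = 0.736).

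RNAs that lack a poly(A) tail were scarce in both groups. The 15 such genes in the table summed to 8.45, 6.55 and 7.10 CPM after saline and 6.07, 4.55 and 10.7 CPM after microbeads, and the most abundant, *Rn7sk*, was at 4.01, 3.30 and 3.88 CPM and at 2.52, 1.73 and 5.07 CPM. Of 5 tested, 0 were higher and 1 lower past the threshold (6.46% and 6.31% of all genes), with 1 at an unadjusted p-value under 0.05 (31.4% of all genes). *Scarna2* was at 1.62, 1.12 and 0.656 CPM after saline and at 0, 0.0722 and 0.13 CPM after microbeads (edgeR adjusted p = 0.0212). The sum overlapped between the groups, with microbead replicate 3 highest.

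Across the lists of histone factors, replacement histones, cell cycle genes, RNAs without a poly(A) tail and cell markers together, 24 genes were past the threshold, and DESeq2 called 24 of them and limma-voom 21. Without microbead replicate 3, edgeR called 0 of the 24, with 24 at an unadjusted p-value under 0.05 and in the same direction. It called 4 without microbead replicate 1, 6 without microbead replicate 2, 17 without saline replicate 1, 3 without saline replicate 2 and 12 without saline replicate 3. Over all genes, edgeR called 2261 with 6 libraries, 46 without microbead replicate 3 and 2621 without saline replicate 1.

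Cell markers are given as the setting in which the histone levels were read, and their counts stand beside 6.46% higher and 6.31% lower over all genes. Of 14 rod markers, 1 was higher (*Pdc*, log2 difference 1.01 ± 0.26, SE, edgeR adjusted p = 0.0362) and 1 lower (*Nrl*, the rod transcription factor, -0.97, SE 0.20, edgeR adjusted p = 0.0192). Of 8 endothelial markers, 4 were lower and 0 higher: *Vwf* (-1.73), *Esam* (-1.01), *Cldn5* (-0.94) and *Flt1* (-0.93), at edgeR adjusted p-values of 0.0227 to 0.0310. Their sum was 493.4, 489.3 and 675.9 CPM after saline and 306.3, 439.8 and 286.2 CPM after microbeads, without overlap, and *Kdr* was the most abundant. Of 10 Müller glia markers, 3 were lower and 0 higher, namely *Crym* (-1.41), *Dkk3* (-1.03) and *Vim* (-0.79), at edgeR adjusted p-values of 0.0242 to 0.0438, and *Glul* was the most abundant. Among the microglia markers, *C1qa*, the most abundant, was at 49.4, 10.2 and 15.0 CPM and at 32.4, 30.1 and 12.3 CPM.

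In the remaining lists, edgeR called 0 of 10 retinal ganglion cell markers (most abundant *Nefl*, 1 at an unadjusted p-value under 0.05), 0 of 5 tested blood leukocyte markers (*Lyz2*), 0 of 5 erythroid markers (*Hbb-bs*), 0 of 8 pigment epithelium markers (*Ttr*, 1 at an unadjusted p-value under 0.05) and 0 of 2 tested lens markers, with 0 at an unadjusted p-value under 0.05 where none is given. No listed marker in the table was at 0 counts in all 6 libraries. The part of these cells in the levels of *Hist1h1c* and *Hist3h2ba*, whose groups did not overlap, was not tested.

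Intronless genes outside the clusters give a further comparison of gene structure. Of 348 tested protein-coding genes with a single annotated exon, 25 were higher and 47 lower past the threshold (6.46% and 6.31% of all genes), with a median log2 fold change of -0.30 against -0.03 for all genes. The whole list of 607 nevertheless summed to 36240, 37238 and 44065 CPM after saline and 113066, 91749 and 106318 CPM after microbeads, without overlap. Its most abundant gene was the mitochondrial *mt-Cytb*, with a mean of 17843 CPM, whereas 55.2% of the list had a mean under 1 CPM. The sum thus follows its most abundant genes, a mitochondrial gene among them, and does not describe the typical intronless gene. The part of the difference in this sum in the histone levels was not tested. Of 206 olfactory receptor genes, which serve as a gauge of scarce transcripts, 99.0% had a mean under 1 CPM. Of the 9 tested, 0 were called by edgeR (12.8% of all genes), with 4 at an unadjusted p-value under 0.05 (31.4% of all genes). All 206 together summed to 11, 9.98 and 5.96 CPM after saline and 12, 17.3 and 15.5 CPM after microbeads, without overlap.

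These values have limits. With 3 libraries per group the median standard error of the members tested was 0.46 in log2, and 19 members were too scarce to test. The microbead libraries were sequenced less deeply, so scarce members were nearer their limit there. Poly(A) enrichment leaves the tail-less histone mRNA largely unmeasured, and levels here are those of the captured form. Shared sequence and overlapping genes make some counts uncertain, and exon lengths come from a later annotation. Protein and chromatin were not measured, and neither cell type nor cell division was separated in whole retina.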

How the data were processed

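The 3 saline and 3 microbead retina libraries were grouped by the treatment in the sample records. The submitters' processing notes name STAR 2.5.3a (GRCm38.p5), featureCounts 1.15.2 and DESeq2 1.14, and the paper names GENCODE vM12 and poly(A) enrichment. Use of strand and of multiply mapped reads in counting is not given in the sources used here. The authors deposited a raw count per gene and library. The table also holds their own comparison (mean normalized count, log2 fold change, fold change, p-value, adjusted p-value and a call marker), which was not used. The test here is edgeR 4.0.16 (R 4.3.3, quasi-likelihood, both directions) after filterByExpr (minimum count 10, minimum total 15) and TMM. P-values were adjusted by Benjamini and Hochberg over every gene tested, and the threshold was 0.05. Limits of 3 counts cover counting error only. Chi-square over its degrees of freedom was 20.1 to 109.1 between replicates of a group, so no library is a copy of another. The steps were tested on simulated data.

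Exons, transcripts and overlaps were taken from GENCODE vM21. Promoters are RefSeq sequences. The members and lists were chosen with earlier results of these data known. Named were the members past the threshold, the 10 with the highest mean CPM, the most abundant of each histone type and cluster, every replacement histone gene, and of each other list up to 4 called genes and the most abundant. Other genes, such as *Trim17*, *Gnat1*, *Slbp*, *Npat*, *Mki67*, *Top2a* and *Hist1h2ac*, were chosen after their values were seen. Some marker genes that this rule names are not reported here. As alternatives, the fit was repeated with DESeq2 1.42.0 and with limma-voom (limma 3.58.1). It was also repeated with scaling by RLE or by the upper quartile, and after removing the 100 top genes from the library sizes. Filtering was dropped, or set to 10 counts per library. Further fits used a replicate block, an offset for GC content and exon length (alone and with the block), and 5 libraries at a time. Stricter calls took an adjusted p-value under 0.01, or a change of more than 2-fold.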

Additional observations from a re-analysis of the deposited data

How the results depend on the processing

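The number of genes past the threshold was 2261 and moved with the settings: 3720 without a filter, 3582 with DESeq2, 1198 with the offset for GC content and exon length plus the block, 87 at an adjusted p under 0.01 and 1248 with a 2-fold minimum. With each library left out in turn it ranged from 46 to 2621.

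Clustered histone genes past the threshold were 0 higher and 0 lower. Higher were 1 with upper-quartile scaling, 1 with DESeq2 and 0 to 1 with a library left out. Lower were 3 without a filter, 1 with DESeq2 and 0 to 1 with a library left out.

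Whether the sample numbers pair samples of the groups cannot be settled with 3 libraries per group. Libraries of the same number correlated at -0.035, 0.136 and 0.010 in their deviations from the group means. Those of number 2 correlated best with each other, but not every library correlated best with its own number. With the number as a replicate block, 905 genes were past the threshold and 0 of them were clustered histone genes.

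The log2 fold change of *Hist1h2bc*, -0.04, had the other sign with upper-quartile scaling (0.004) and with library sizes without the 100 most abundant genes (0.03). It ranged from -0.391 to 0.125 with a library left out, being above 0 without microbead replicate 2 (0.125), microbead replicate 3 (0.093) and saline replicate 3 (0.096). That of *Hist1h4i*, 0.31, ranged from -0.101 (without microbead replicate 1) to 0.592. The cause was not tested for any of these. The other 9 named members kept their sign in every fit that held them. With a library left out, the log2 fold change ran from 0.03 to 0.39 (*Hist1h2be*, 0.20), -1.42 to -0.65 (*Hist2h3c2*, -0.95) and 0.88 to 1.75 (*Hist4h4*, 1.37); *Hist3h2a* ran from 0.44 to 0.75 and *Hist3h2ba* from -1.11 to -0.61. The log2 ratio of the summed level, -0.10, ran from -0.34 (without microbead replicate 1) to 0.05 (without microbead replicate 2), so its sign depends on the libraries kept; each of these moves was less than the spread within groups.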
